A study of Mus musculus with 4 samples.

Results

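The cytokine LIF acts on mouse embryonic stem cells through a receptor and the transcription factor STAT3, and 10 genes of this route were followed after exposure to bone morphogenetic protein 2 (BMP-2). Lifr and Il6st encode the receptor subunits, Stat3 the transcription factor, and Socs1, Socs2, Socs3 and Cish belong to the suppressor of cytokine signalling (SOCS) family. Pim1, Pim3 and Gbx2 are further genes known to respond to STAT3. The genes were represented by every probe set that the platform annotation names with exactly 1 of these symbols, 28 of the 45101 on the array. No probe set was shared with another gene symbol (0 with several symbols).

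LIF binds LIFR, which pairs with gp130, the product of Il6st, and the JAK kinases bound to both then phosphorylate STAT3. In mouse embryonic stem cells this route is known for holding cells in self-renewal, and BMP ligands are known to support that state together with LIF through induction of Id genes. STAT3 also switches on its own inhibitors, among them Socs3, whose product binds gp130 and dampens the signal.

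RNA came from cells given BMP-2 for 1 h at 25 ng/ml (2 arrays) and from untreated cells (2 arrays). Both groups were E14Tg2A.4, a feeder-independent derivative of the mouse embryonic stem cell line E14Tg2a, which lacks a working Hprt gene, so they represent 1 cell line. Whether the medium held LIF or serum is not given in the sources used here. Total RNA was labelled as biotinylated cRNA and hybridised to one-colour Affymetrix arrays. The labels do not name separate cultures behind replicate arrays, and the p-values therefore measure a spread that could be technical.

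The values are MAS5 signals, a linear brightness per probe set, and the number of arrays limits their precision. Median signals were 81.8 and 94.9 on the BMP-2 arrays, against 82.5 and 94.6 on the untreated arrays. On untreated replicate 2 the control probe sets for 18S ribosomal RNA read 3.94 to 6.11 times the highest other array. Its part in the results was not tested, and the plot of the differences with each array left out gives every value without it. All 8 stem cell markers were bright, with signals of 3286 to 22527 (Pou5f1, Nanog and Sox2 among them). Of 10 markers of fibroblast feeder cells 2 were bright enough to be tested (Thy1 and Col1a2), with summed signals of 381 to 422 in treated and 400 to 429 in untreated cells. The probe sets of Col1a1, Col3a1, Col6a1, Dcn, Lum, Postn and Pdgfrb read at most 67.2, and Fbn1 was not analysed here.

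The 300-base windows around annotated gene starts (250 bases before, 50 after) are shown for Socs3, Cish and Gbx2. Socs3 and Gbx2 had the most negative differences after BMP-2 among the bright probe sets described below, and Cish is the SOCS gene whose window holds a pair of STAT motifs. Sequences are from RefSeq, and capitals mark TTCNNNGAA, the motif bound by STAT proteins, and GGCGCC, a motif bound by SMAD1 and SMAD5, the factors that BMP receptors activate.
Socs3, GRCm38.p6 chr11:117969317-117969616, minus strand: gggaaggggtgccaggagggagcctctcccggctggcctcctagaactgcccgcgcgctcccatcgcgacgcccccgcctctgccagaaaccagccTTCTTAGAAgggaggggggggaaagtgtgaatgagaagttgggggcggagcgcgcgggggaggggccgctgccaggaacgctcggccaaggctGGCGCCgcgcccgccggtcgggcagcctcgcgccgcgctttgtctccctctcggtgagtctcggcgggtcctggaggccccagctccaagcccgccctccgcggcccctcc
Cish, GRCm38.p6 chr9:107296409-107296708, plus strand: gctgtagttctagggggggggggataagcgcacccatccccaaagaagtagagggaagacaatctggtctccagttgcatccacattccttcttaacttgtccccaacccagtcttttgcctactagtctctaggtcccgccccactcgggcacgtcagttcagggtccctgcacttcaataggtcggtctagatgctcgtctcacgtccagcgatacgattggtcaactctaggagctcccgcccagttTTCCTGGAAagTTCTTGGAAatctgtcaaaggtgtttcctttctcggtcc
Gbx2, GRCm38.p6 chr1:89931127-89931426, minus strand: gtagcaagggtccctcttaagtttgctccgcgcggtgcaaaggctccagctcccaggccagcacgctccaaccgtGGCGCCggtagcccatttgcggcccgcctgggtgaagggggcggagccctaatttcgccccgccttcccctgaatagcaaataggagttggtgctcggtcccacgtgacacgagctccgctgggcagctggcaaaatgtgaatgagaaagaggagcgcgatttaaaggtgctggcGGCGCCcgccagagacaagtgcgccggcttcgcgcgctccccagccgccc

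The Socs3 window holds 1 match to each motif, TTCTTAGAA at base 97 and GGCGCC at base 190, counted from 1 at the 5′ end. Its start site lies 970 bases inside the RefSeq record of the gene, so a further start is annotated outside this window. The Cish window has TTCCTGGAA at base 251 and TTCTTGGAA at base 262, and the Gbx2 window has GGCGCC at bases 76 and 251. Windows were given for 9 of the 10 genes, 11 windows in all, since Lifr and Pim1 have a pair each. TTCNNNGAA, searched on both strands, was found in 2 of the 11 windows (Socs3 and Cish) and in 8.30% of all 32851 windows. GGCGCC was found in 3 of the 11 (Socs3, Gbx2 and 1 window of Lifr) and in 11.9% of all. That Lifr window, not shown here, has it at bases 57 and 226. The windows of Socs1, Stat3, Il6st, Pim1 and Pim3 hold neither. A match is a description of letters and not evidence of binding, and the motifs do not overlap.

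Treated and untreated cells were compared to ask which of these transcripts differed after 1 h and whether the feedback genes moved together. Differences are log2 signal in treated minus untreated cells, fitted with limma over the 27022 probe sets whose mean log2 signal lay above the 40th percentile (a signal of 53.0). Of the 28 probe sets 27 passed this filter, and the 28th, a Socs2 probe set, read 25.4 and 20.7 in treated against 17.0 and 30.1 in untreated cells. None of the 27 passed an adjusted p of 0.05 (0 called), and 0.0185% of all tested probe sets did. Gbx2 had the smallest adjusted p, 0.91, and the adjusted p of the other 26 was 1.00 by limma. At an unadjusted p under 0.05 there were 6 of 27 (22.2%), against 3.07% of all tested probe sets, namely all 3 of Socs3, 1 each of Socs2 and Pim1, and Gbx2. For 14 of 27 probe sets (51.9%) the treated and untreated signals did not overlap, against 28.4% of all (6 higher, against a share of 15.9%, and 8 lower, against 12.5%). Probe sets of 1 gene measure the same RNA, so these shares rest on fewer genes than probe sets. In RNA from whole cultures, fewer cells that express a gene and less RNA per cell cannot be told apart. The genes were chosen with earlier results of these data known.

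**Figure D1:**
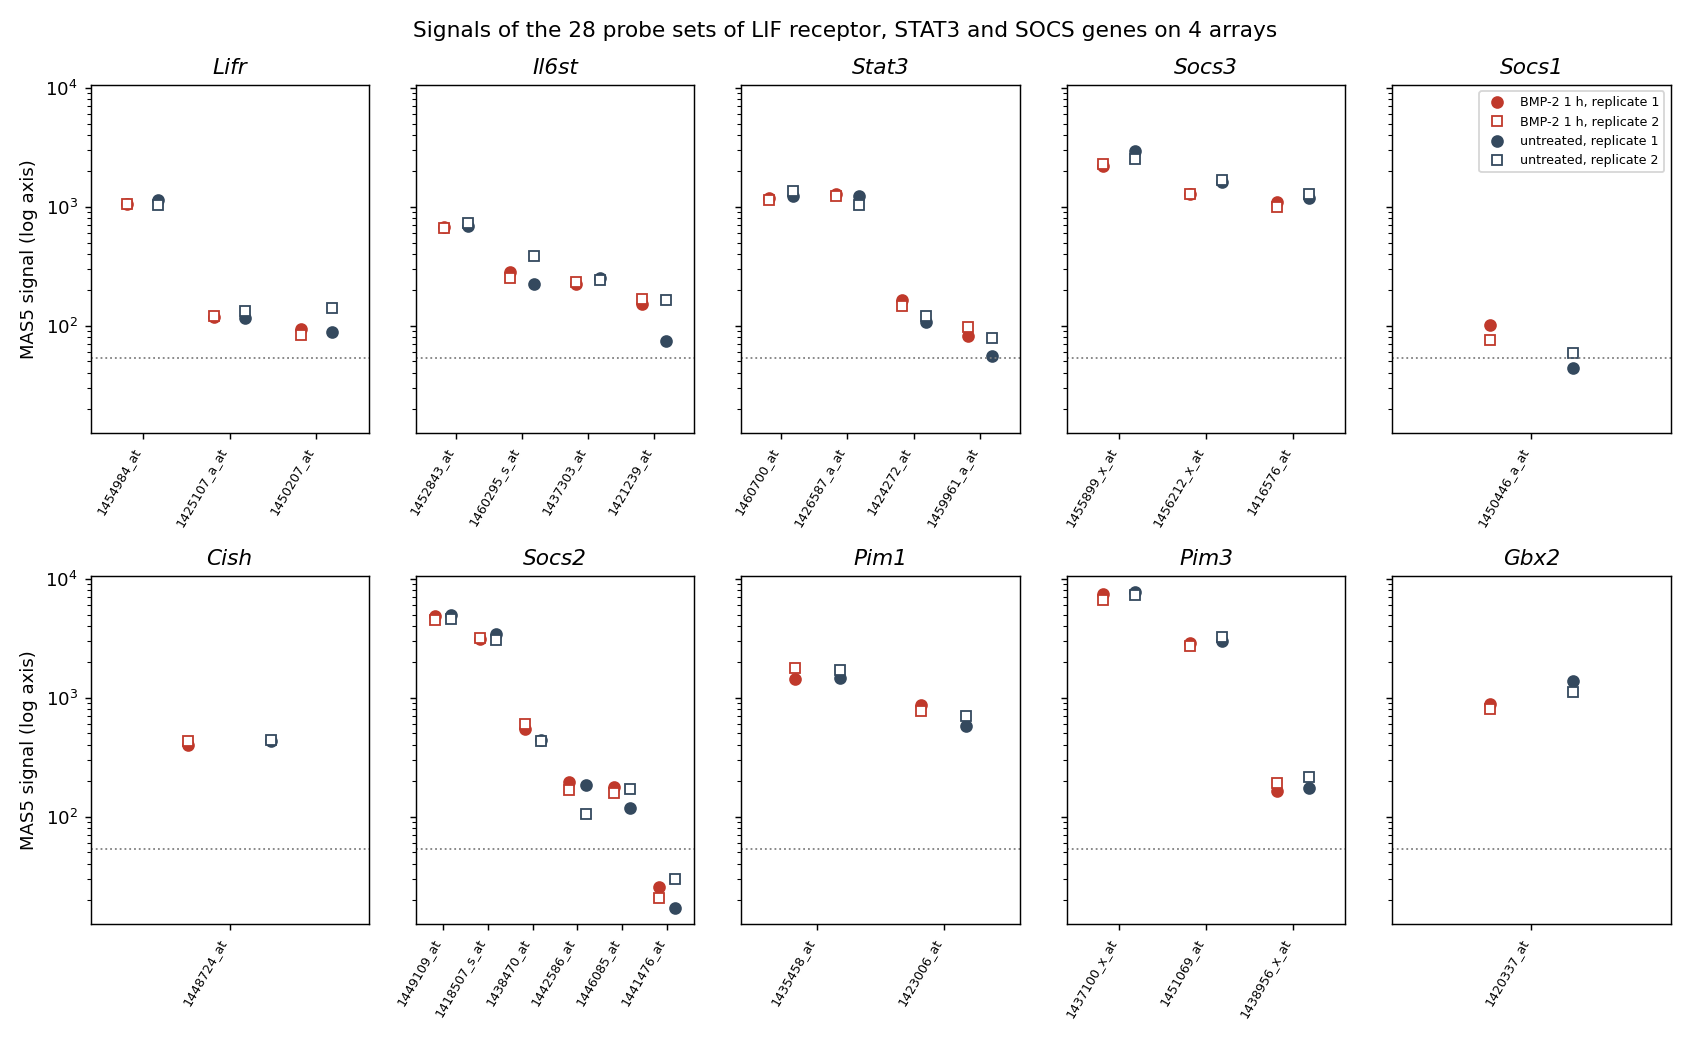
MAS5 signal on a log axis for each of the 28 probe sets, by gene, on the BMP-2 arrays (red, left of each pair) and the untreated arrays (dark, right), with filled circles for replicate 1 and open squares for replicate 2. The dotted line is the lower signal limit of 53.0, and the 3 Socs3 probe sets and Gbx2 lie lower on both treated arrays than on both untreated arrays.

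Among the receptor genes, Lifr, the subunit that binds LIF, was close to equal on its bright probe set. That probe set (1454984_at) read 1050.2 and 1056 in treated cells, against 1140 and 1045 in untreated cells. The treated signals lie between the untreated ones, and the difference was -0.05 log2 ± 0.11 (SE, n = 2 per group), with an interval of 0.818-fold to 1.14-fold at 95%. The dimmer Lifr probe sets read 83.9 to 121 in treated and 89.1 to 142 in untreated cells and differed by -0.04 and -0.35 log2. Their groups overlapped too, and the larger of these differences was -0.01 log2 without untreated replicate 2.

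Il6st encodes gp130, the subunit shared by the receptors of the IL-6 cytokine family. On its brightest probe set (1452843_at) the signals were 677 and 663 in treated cells, against 684 and 734 in untreated cells. Both treated arrays were lower, by a difference (-0.08 log2 ± 0.12, SE, n = 2 per group) smaller than its error, and the interval ran from 0.786-fold to 1.14-fold. It was -0.03 log2 without untreated replicate 2. A second probe set, 1437303_at, also had both treated arrays lower, at 226 and 231 in treated against 250.1 and 240.1 in untreated cells (-0.10 log2). The other Il6st probe sets overlapped between groups and went opposite ways, at -0.14 log2 for 1460295_s_at and 0.55 log2 for 1421239_at. The second of these rests on untreated replicate 1, which read 73.7 where the other arrays read 153 to 169, and without that array the difference was -0.02 log2.

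Stat3, the transcription factor that the receptor activates, had 4 tested probe sets that did not go one way. Signals of 1460700_at were 1191 and 1135 in treated cells, against 1222 and 1350.5 in untreated cells. Signals of the similarly bright 1426587_a_at were 1288 and 1244 in treated cells, against 1229 and 1029 in untreated cells. Neither pair of groups overlapped, yet the first lay lower (-0.14 log2 ± 0.11) and the second higher (0.17 log2 ± 0.12, SE, n = 2 per group). Without untreated replicate 2 these differences were -0.07 and 0.04 log2. The ending _a marks a probe set designed against several transcripts of the same gene. The dim probe sets 1424272_at and 1459961_a_at were higher on both treated arrays, at 166 and 148 in treated against 108 and 121 in untreated cells, and at 81.5 and 98.2 in treated against 55.6 and 78.2 in untreated cells. They gave 0.46 and 0.44 log2, with intervals that include 0 (lower ends of -0.06 and -0.31 log2), and the second was 0.19 log2 without untreated replicate 1. The mean over the 4 probe sets was 0.23 log2 ± 0.13 (SE, limma adjusted p = 0.999), so Stat3 was not shown to differ.

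Socs3, the feedback inhibitor that binds gp130, had 3 bright probe sets, and on each of them both treated arrays lay below both untreated arrays. On 1456212_x_at the signals were 1271 and 1277 in treated cells, against 1615 and 1677 in untreated cells. On 1455899_x_at they were 2210.1 and 2287 in treated cells, against 2940 and 2505 in untreated cells. On both of these the replicates were closer to each other in treated cells than in untreated cells. The third, 1416576_at, read 1089 and 995 in treated cells, against 1197 and 1272 in untreated cells. Differences were -0.37 ± 0.10, -0.27 ± 0.10 and -0.25 log2 ± 0.11 (SE, n = 2 per group), or 0.774-fold, 0.828-fold and 0.843-fold. The unadjusted p was 0.00327, 0.0211 and 0.0456, and none passed adjustment over all probe sets (adjusted p = 1.00 by limma). Without untreated replicate 2 they were -0.34, -0.39 and -0.20 log2, and over all fits that leave out 1 array they ran from -0.40 to -0.16 log2. The ending _x marks probe sets with probes that can also bind other transcripts, which leaves 1416576_at as the Socs3 probe set without that mark. The mean over the 3 was -0.30 log2 ± 0.08 (SE, adjusted p = 0.999 by limma).

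Socs1, which blocks JAK kinase activity directly, lay the opposite way on its single, dim probe set. Signals were 101 and 76.2 in treated cells, against 43.9 and 59.3 in untreated cells. Both treated arrays were higher, but the untreated mean of 51.6 lies below the signal limit of 53.0. With signals under the limit raised to it the value was 1.57-fold, and the measured difference of 0.78 log2 ± 0.37 (SE, n = 2 per group) had an interval of -0.03 to 1.60 log2. It was 1.00 log2 without untreated replicate 2, 0.57 without untreated replicate 1, 0.58 without BMP-2 replicate 1, 0.99 without BMP-2 replicate 2 and 0.57 with a pseudocount of 25.4.

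Cish encodes a SOCS protein known for restraining receptors that act through STAT5. It read 404 and 436 in treated cells, against 433 and 445 in untreated cells. The groups overlapped, and the difference of -0.07 log2 ± 0.14 (SE, n = 2 per group) leaves an interval of 0.771-fold to 1.19-fold. With 1 array left out it ran from -0.12 to -0.01 log2.

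Socs2, known for limiting growth hormone signalling, was bright and close to equal on a pair of probe sets. Signals of 1449109_at were 4885 and 4478 in treated cells, against 4990.4 and 4617 in untreated cells, and the groups overlapped. On 1418507_s_at they were 3127 and 3186 in treated cells, against 3421 and 3071 in untreated cells. Both gave -0.04 log2 (SE 0.08 and 0.09), with intervals of 0.857-fold to 1.11-fold and 0.851-fold to 1.11-fold, so larger changes lie outside the unadjusted 95% intervals of these probe sets. The dimmer 1438470_at went higher on both treated arrays, at 547 and 596 in treated against 442 and 433 in untreated cells (0.39 log2 ± 0.13, unadjusted p = 0.0158, adjusted p = 1.00 by limma). It kept 0.32 to 0.45 log2 when any 1 array was left out. The dim 1442586_at and 1446085_at overlapped between groups and gave 0.38 and 0.23 log2, and each took the opposite sign without 1 untreated array. The Socs2 probe sets thus differ from one another by up to 0.42 log2, and the files do not say which part of the transcript each one reads.

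Pim1 and Pim3 encode serine and threonine kinases known to promote survival. Pim1 on 1423006_at read 869 and 779.7 in treated cells, against 575 and 700.2 in untreated cells. Both treated arrays were higher (0.38 log2 ± 0.14, unadjusted p = 0.0204, adjusted p = 1.00 by limma), with 0.23 log2 without untreated replicate 1 and 0.52 without untreated replicate 2. The brighter Pim1 probe set 1435458_at read 1426 and 1770.2 in treated cells, against 1452 and 1706 in untreated cells. On it the arrays of a group differed more than the groups did, and the difference was 0.01 log2 ± 0.13 (SE, n = 2 per group). Pim3 was lower on all 3 of its probe sets, of which 1451069_at did not overlap, with 2889.8 and 2747 in treated cells against 3027 and 3231 in untreated cells. The 3 differences were -0.15, -0.11 and -0.12 log2. Of these probe sets 1437100_x_at and 1438956_x_at carry the _x ending, so their probes can also bind other transcripts. The brightest gave -0.02 log2 without BMP-2 replicate 2, and the dimmest turned to 0.02 log2 without untreated replicate 2. Their intervals all include 0, and for the brightest, 1437100_x_at, the interval ran from 0.819-fold to 1.05-fold.

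Gbx2 encodes a homeobox factor known to be induced by LIF and STAT3 in mouse embryonic stem cells. Its 1 probe set read 889 and 802 in treated cells, against 1378 and 1121 in untreated cells. Both treated arrays lay below both untreated arrays, at 0.679-fold (interval 0.557-fold to 0.828-fold), or -0.56 log2 ± 0.13 (SE, n = 2 per group). The unadjusted p was 0.00145 and the adjusted p 0.91 by limma, so Gbx2 did not pass. The difference was -0.71 log2 without untreated replicate 2 and -0.41 without untreated replicate 1, and the adjusted p ran from 0.061 to 1.00 over the alternative settings.

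**Figure D2:**
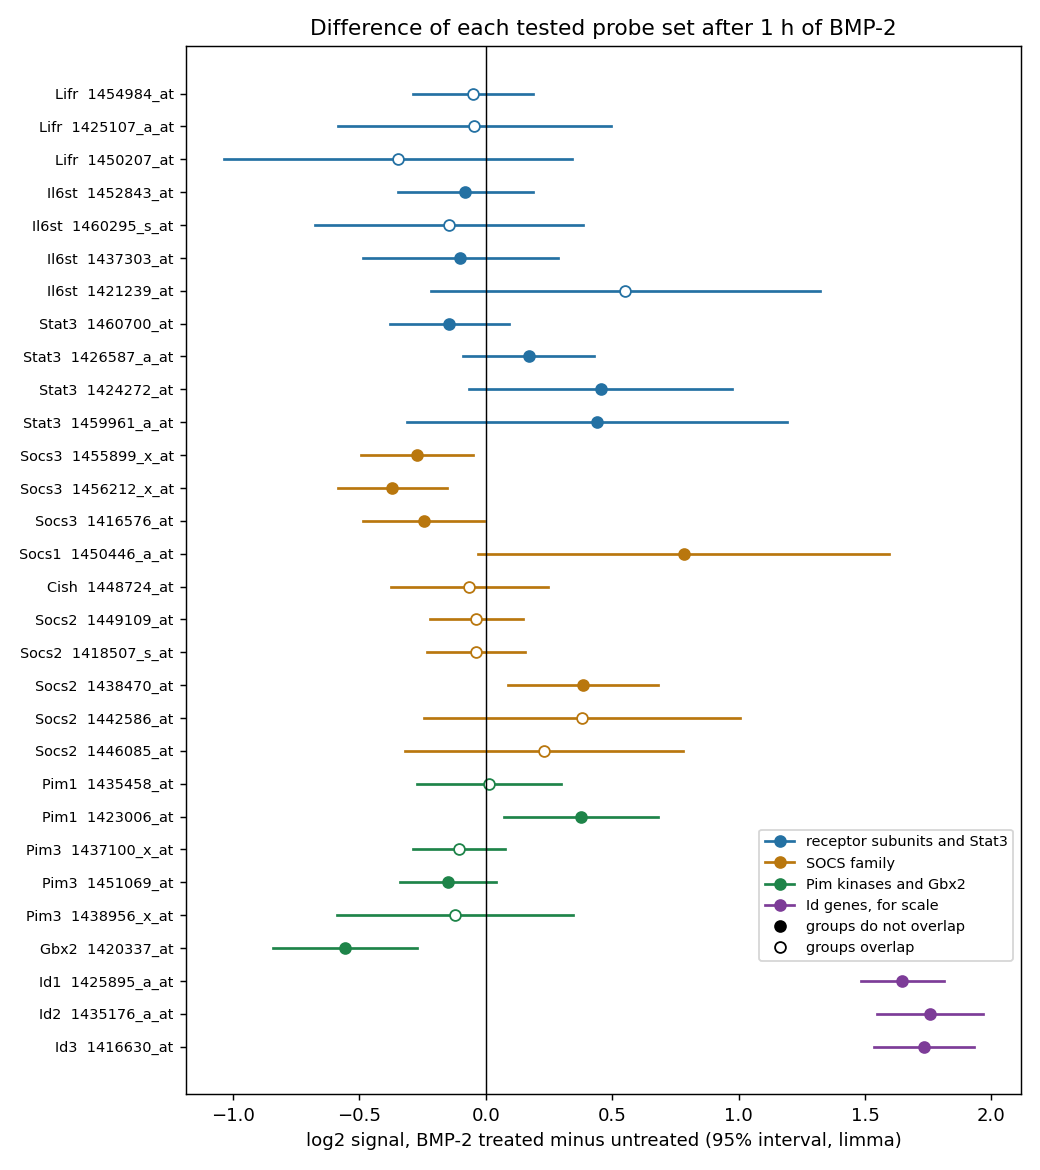
Log2 signal in treated minus untreated cells for the 27 tested probe sets, with 95% intervals from limma, and for Id1, Id2 and Id3 for scale. Filled points mark groups that do not overlap. The intervals of the 3 Socs3 probe sets and of Gbx2 lie below 0, those of 1 Socs2 and 1 Pim1 probe set above 0, and the Id genes lie at 1.65 to 1.76 log2.

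The feedback genes Socs3, Cish, Socs1, Socs2, Pim1 and Pim3 did not lie on one side. Of their 15 tested probe sets 6 were higher and 9 lower in treated cells, with a median difference of -0.04 log2, against 14099 higher, 12923 lower and a median of 0.01 log2 over all tested probe sets. Groups did not overlap for 7 of the 15 (46.7%, against 28.4% of all tested probe sets). Of these, 3 were higher (Socs1, and 1 each of Socs2 and Pim1), against a share of 15.9% of all. The other 4 were lower (3 of Socs3, which measure the same RNA, and 1 of Pim3), against 12.5% of all. By gene, all 3 probe sets of Socs3, all 3 of Pim3 and the 1 of Cish were lower. The 1 probe set of Socs1 and the 2 of Pim1 were higher, while Socs2 had 3 higher and 2 lower. Pim1 1435458_at, Pim3 1438956_x_at and Socs2 1449109_at, 1418507_s_at, 1442586_at and 1446085_at turned sign in fits with 1 array left out. Cish and the brightest probe sets of Socs2, Pim1 and Pim3 differed by -0.11 to 0.01 log2. None of these differences was called.

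Over all 27 tested probe sets 10 were higher (37.0%, against 52.2% of all tested) and 17 lower (63.0%, against 47.8%), with a median of -0.05 log2 (-0.023 without untreated replicate 2). Among the 21 above the 60th percentile of signal 15 were lower (71.4%, against 47.2% of all tested in that range). Their median was -0.08 log2, against 0.01 log2 for all tested in that range. All 3 probe sets of Socs3 and all 3 of Pim3 are among the 15, so they rest on fewer genes. Of the 6 dimmer probe sets 4 were higher (66.7%, against 50.9% of all tested in that range), with a median of 0.45 log2 and a median SE of 0.32 log2. The higher values of Socs1, Il6st 1421239_at and the dim Stat3 probe sets come from this dim range, where the median over all tested probe sets was 0.01 log2.

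**Figure D3:**
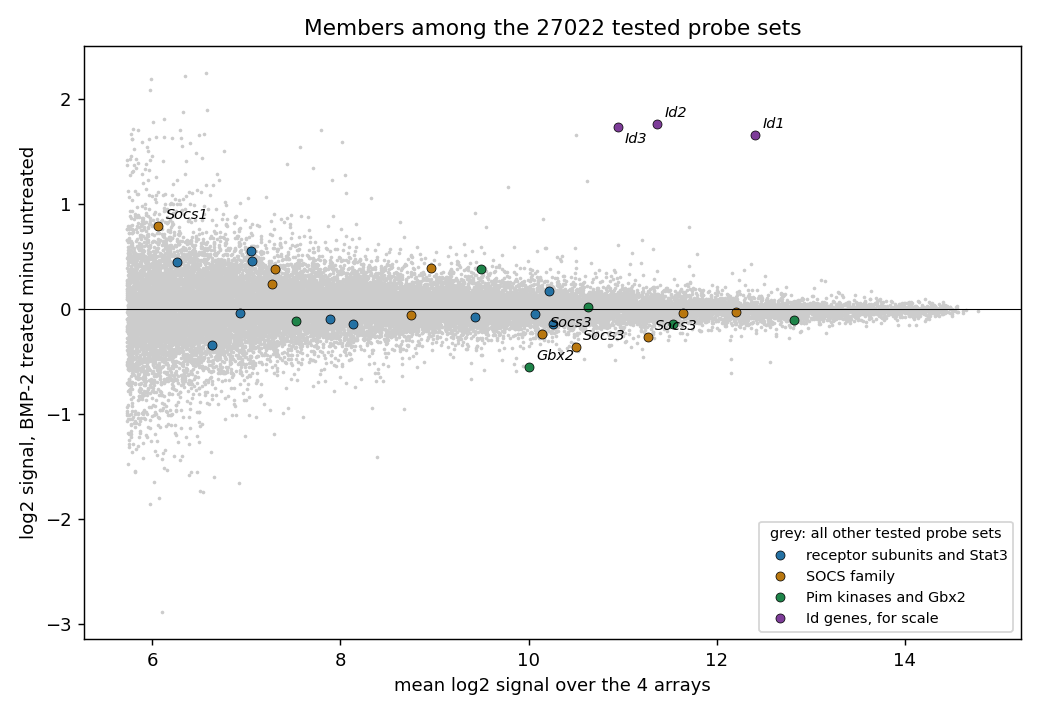
Log2 signal in treated minus untreated cells against mean log2 signal over the 4 arrays, with all tested probe sets in grey and the genes followed here coloured by role. Gbx2 and the Socs3 probe sets lie below 0, and some grey points of similar brightness lie lower than each Socs3 probe set. Socs1 lies in the wide dim range, and Id1, Id2 and Id3 are marked for scale at 1.65 to 1.76 log2.

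Id1, Id2 and Id3, known early BMP targets, rose on the same arrays by 1.65, 1.76 and 1.73 log2 (limma adjusted p = 2.0e-05, 3.6e-05 and 3.6e-05). These calls were lost when the variance was not allowed to follow signal (adjusted p = 0.859 for each by limma). The signal of Id1 was 9738 and 9495 in treated cells, against 3129 and 3007 in untreated cells. Among the 27 probe sets the interval of the dim Socs1 reached 1.60 log2 at its upper end, and the other intervals lay between -1.03 and 1.32 log2.

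Single arrays were left out in turn. For the 14 of 27 probe sets whose groups do not overlap, this cannot turn the sign, so a kept sign adds nothing there. All 3 Socs3 probe sets, Gbx2, Cish, the brighter 2 of Pim3, 2 of Il6st and 1 each of Lifr and Stat3 stayed below 0 in each of these fits, and Socs1, Socs2 1438470_at, Pim1 1423006_at and the other 3 Stat3 probe sets stayed above 0. Signs turned for 10 of the 27 probe sets, among them the bright probe sets of Lifr, Socs2 and Pim1. In none of the 12 alternative settings did a probe set of these genes pass (0 passed). These fits leave 1 array in a group, which is assumed to vary like the other group.

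**Figure D4:**
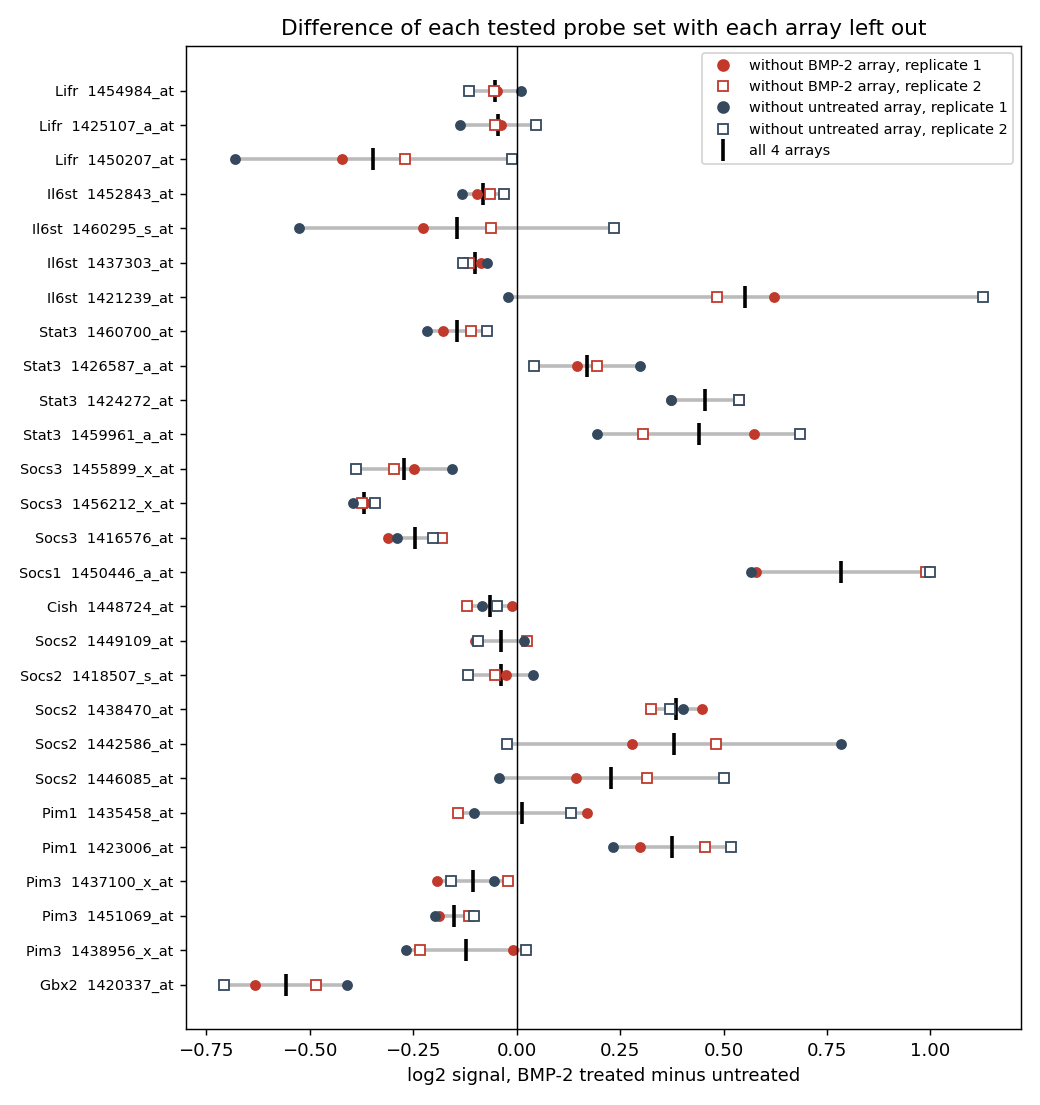
Log2 signal in treated minus untreated cells for each tested probe set with all 4 arrays (black bar) and with each array left out (red for a BMP-2 array, dark for an untreated array). Gbx2 runs from -0.71 to -0.41 log2 and Socs3 from -0.40 to -0.16, while Il6st 1421239_at spans -0.02 to 1.13 log2.

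The rest of the route was described with 6 lists of 48 genes, of which 43 had a tested probe set. None passed (0 called, with 1 of 43, Tbx3, at an unadjusted p under 0.05), 22 were higher and 21 lower, and the median was 0.00 log2. Groups did not overlap for 9 of 43 (20.9%, against 28.4% of all tested probe sets). Of 7 ligands 4 were tested, 3 higher and 1 lower. Lif itself was dim, at 82.6 and 124 in treated cells against 121 and 79.7 in untreated cells, with overlapping groups, and Il6 read at most 3.65. The 3 brightest ligands, Ctf1, Osm and Clcf1, differed by 0.07, 0.45 and -0.32 log2. Of 4 further receptor subunits 3 were tested, with 0.01 log2 for Il6ra, 0.27 for Cntfr and -0.79 for Osmr (SE 0.61).

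Kinases and adaptors carry the signal from the receptor. All 6 were tested, 3 higher and 3 lower, with 0.00 log2 for Gab1, -0.02 for the adaptor Grb2 and 0.11 for the phosphatase Ptpn11, and groups overlapped for each of the 6. Jak1, the main kinase of gp130, read 560.0 and 575 in treated cells, against 538 and 595 in untreated cells (0.00 log2 ± 0.13). Of the other STAT genes 5 of 6 were tested, with 0.09 log2 for Stat6, 0.05 for Stat4 and -0.13 for Stat2. The further inhibitors were all tested, 6 higher and 3 lower of 9, within -0.08 to 0.14 log2. The brightest were the phosphatase genes Ptpn2 (0.01) and Ptpn1 (-0.02) and the SOCS gene Socs6 (0.14). The SOCS genes outside the 4 followed here, Socs4 to Socs7, were thus between -0.08 and 0.14 log2.

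Among 16 other genes known to respond to LIF and STAT3, 5 were higher and 11 lower, with a median of -0.02 log2, and none passed. The brightest were the survival gene Mcl1 (-0.02 log2), the kinase gene Sgk1 (-0.06) and the pluripotency factor Klf5 (0.00). The differences of this list ran from -0.15 log2 for Pim2, the third Pim kinase, to 0.36 for Tbx3. Pim2 read 4745 and 4585 in treated cells, against 5183 and 5152 in untreated cells, and Tbx3 read 906 and 908 in treated cells, against 687 and 730 in untreated cells. Neither pair of groups overlapped and neither gene passed (adjusted p = 1.00 by limma). Over this list groups did not overlap for 3 of 16 genes (18.8%, against 28.4% of all tested probe sets). Pim2 and Tbx3 were named after their values were seen, as were Lif, Jak1 and Il6.

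**Figure D5:**
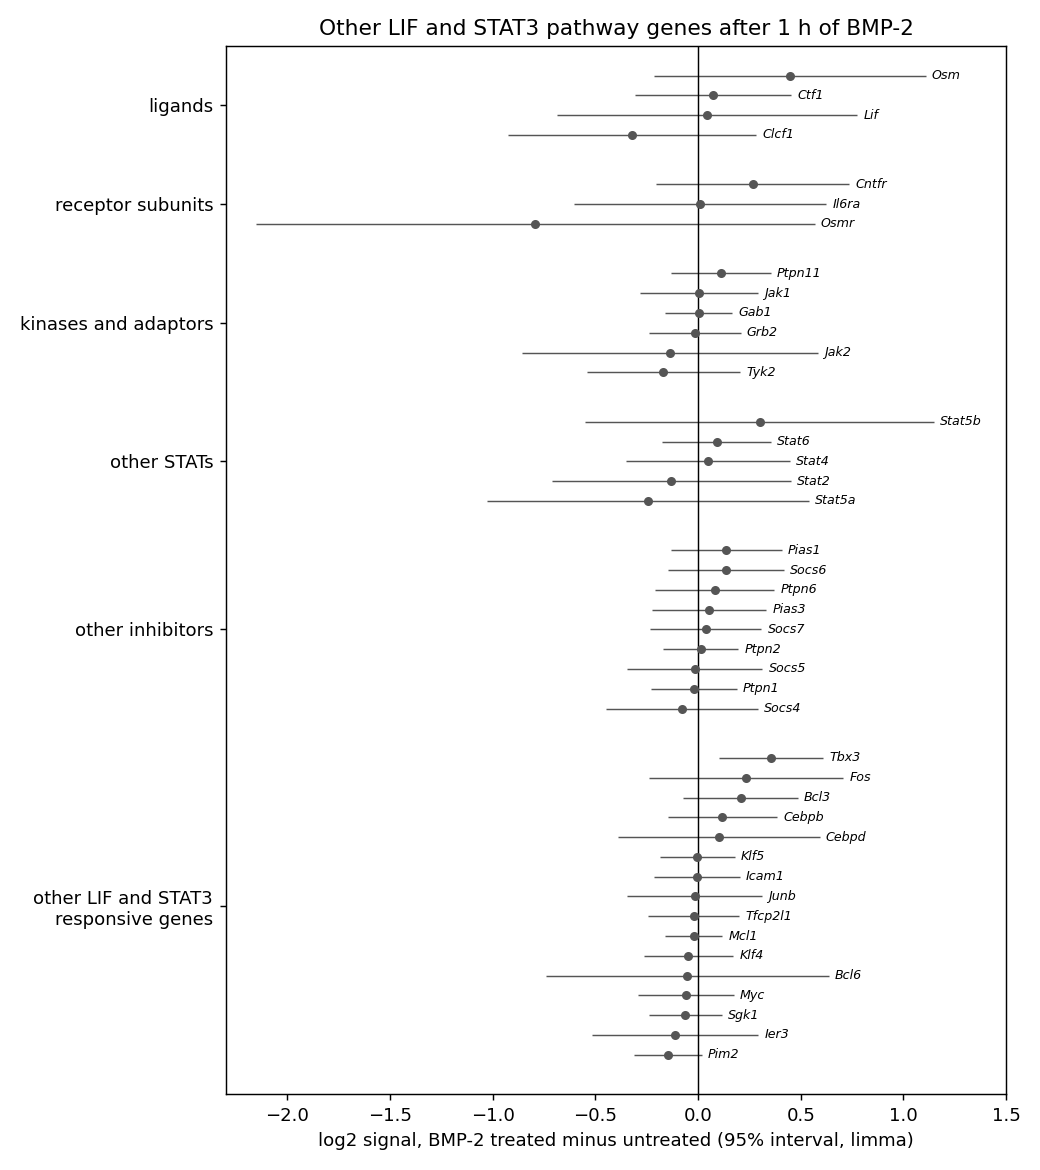
Log2 signal in treated minus untreated cells with 95% intervals from limma for the 43 tested genes of the 6 lists, each by its brightest tested probe set. All intervals include 0 except that of Tbx3, and wide intervals belong to dim probe sets such as Osmr.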

How the data were processed

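Transcripts were measured on 4 one-colour arrays, grouped by the samples' titles. The deposited signals are intensity values per probe set on a linear scale, and per the submitters' processing notes they come from MAS5, with no version named there. Each array had a 2%-trimmed mean of 500.0, which points to scaling array by array. Dim MAS5 signals are noisy on a log scale, and detection calls were not used here.

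No pseudocount was added before taking log2. Array medians lay within 0.21 log2, under the limit of 0.3 for further normalization. With 64 control probe sets left out, the 27022 above the 40th percentile of mean log2 signal were fitted with limma 3.58.1 (R 4.3.3), with group as the only term and eBayes letting the variance follow signal. Tests were two-sided and adjusted after Benjamini and Hochberg over these 27022. Intervals are at 95% and unadjusted. With 2 residual against 7.98 prior degrees of freedom, the error of a probe set comes largely from others of similar brightness. A permutation of 2 against 2 arrays cannot pass 0.05 and was not run, and no gene was named by likeness of pattern over 4 arrays.

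All probe sets of the 10 genes are described, and the 3 brightest genes of each other list by their brightest tested probe set. The genes and lists were chosen with earlier results of these data known. Other settings tried were quantile normalization, centring on array medians, adding a pseudocount of 25.4, dropping the filter or moving it to the 60th percentile, a constant prior variance, a replicate block, each array left out, an adjusted p under 0.1 and gene means. The fit was tested on simulated data. Promoter windows came from RefSeq tables of GRCm38.p6, searched with Python 3.11.15.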

Additional observations from a re-analysis of the deposited data

How the results depend on the processing

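With all 4 arrays kept, no probe set of the 10 genes and no gene of the 6 lists passed under any alternative setting (0 in each). At an unadjusted p under 0.05 by limma there were 3 to 7 of the 27 probe sets, against 3.07% to 5.37% of all tested. With the filter at the 60th percentile there were 6 of the 21 left, against 2.87% of all. The median difference of the 10 genes' probe sets, -0.05 log2, was -0.081 with the filter at the 60th percentile, -0.068 with quantile normalization and -0.071 to -0.023 with 1 array left out (-0.023 without untreated replicate 2). Over 318 alternative values of single probe sets 306 kept direction and call. Dropping or moving the filter, a constant prior variance, the replicate block and the looser threshold leave each difference as it was. Direction could not turn under those settings, so a kept direction adds nothing there. Leaving out 1 array cannot turn the sign of the 14 probe sets whose groups do not overlap. The 12 other values turned sign with 1 array left out. Without untreated replicate 1 these were Lifr 1454984_at (0.012 log2, range over the left-out arrays -0.11 to 0.012), Il6st 1421239_at (-0.021, range -0.021 to 1.13), and Socs2 1449109_at (0.019, range -0.10 to 0.025), 1418507_s_at (0.040, range -0.12 to 0.040) and 1446085_at (-0.043, range -0.043 to 0.50), and Pim1 1435458_at (-0.10, range -0.14 to 0.17). Without untreated replicate 2 they were Lifr 1425107_a_at (0.048, range -0.14 to 0.048), Il6st 1460295_s_at (0.24, range -0.53 to 0.24), Socs2 1442586_at (-0.023, range -0.023 to 0.78) and Pim3 1438956_x_at (0.023, range -0.27 to 0.023), and without BMP-2 replicate 2 Socs2 1449109_at (0.025) and Pim1 1435458_at (-0.14). The filter at the 60th percentile left 21 of the 27 and 6 instead of 10 higher. Over all tested probe sets the 5 calls became 116 with median centring, 8 with the filter at the 60th percentile, 0 without the intensity trend (Id1, Id2 and Id3 among the lost calls, 1023 at an unadjusted p under 0.05), 11 at an adjusted p under 0.1, and 16 to 141 with 1 array left out (93 without BMP-2 replicate 1, 141 without BMP-2 replicate 2, 38 without untreated replicate 1 and 16 without untreated replicate 2). The filter and the left-out arrays also leave fewer probe sets or arrays, and the cause of these shifts was not tested.

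With the replicate number as a block 11 probe sets passed, none of them of these genes, and the smallest adjusted p among them was 0.219. Deviations of same-numbered arrays from their group means correlated at 0.15 across probe sets, and the labels do not state that the numbers pair samples. Array medians were alike by number, at 81.8 (BMP-2) and 82.5 (untreated) for replicate 1 and 94.9 and 94.6 for replicate 2. Summed stem cell marker signals were too, at 94641 and 94253 for replicate 1 and 89462 and 89727 for replicate 2. Whether the arrays are paired was not tested. Background was not measured here, and the median SE was 0.32 log2 for the 6 dimmer of the 27 probe sets and 0.12 for the 21 brighter ones.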
